A study of Homo sapiens with 6 samples.

Results

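Sphingosine-1-phosphate (S1P) is a lipid signal that cells make, export, sense and break down, and 9 human genes of this system were followed here in a kidney cancer cell line before and after exposure to inflammatory cytokines. They were chosen by name: the receptors S1PR1, S1PR2, S1PR3 and S1PR5, the kinases SPHK1 and SPHK2, the lyase SGPL1, the phosphatase SGPP1 and the exporter SPNS2, which make up 9 of the 61541 genes listed in each library. The choice was made knowing that S1PR1 differs between the groups, so the treatment values of these 9 genes are a description and carry no p-value. RCC4 is an established human line of clear cell kidney carcinoma, labelled as epithelial. All 6 cultures were RCC4 grown in the same serum-containing medium. The control group was 3 untreated cultures, and the other group was 3 cultures given IFNγ (interferon gamma, 1000 U/mL) and TNF (tumour necrosis factor, 25 ng/mL) for 24 h. Each biological replicate combined cells from 3 flasks. The labels give no arm with either cytokine alone, so their separate parts cannot be told apart, and a single cell line stands for the tumour type. Poly(A) RNA was read as native molecules by direct RNA nanopore sequencing, in which each read is 1 RNA strand read from its 3′ end.

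S1P is made from sphingosine, a breakdown product of ceramide, by the sphingosine kinases. SPNS2 carries it out of the cell, and the receptors, which are coupled to G proteins, respond to it at the cell surface. S1PR1 signals through Gi, whereas S1PR2 and S1PR3 also couple to G12 and G13 and Gq. The pool inside the cell is removed either by phosphatases, which return it to sphingosine, or by the lyase, which cleaves it irreversibly. S1P is best known for guiding lymphocytes out of lymphoid organs and for holding the endothelial barrier. In the kidney, S1P receptors are known from endothelial, mesangial and tubular cells.

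The promoters of the 3 receptors with reads are shown because these genes moved in different directions in the same cells. Each run is a RefSeq window of 300 bases on GRCh38.p14, 250 before to 50 after an annotated start, in the direction of the gene. Capitals mark matches on either strand to 4 motifs of factors linked to these cytokines or to S1PR1. They are the STAT gamma-activated site TTCNNNGAA, the core of the interferon-stimulated response element (GAAA, any 2 bases, GAAA), the NF-kappaB site and the KLF box CACCC.
S1PR1 (chr1:101236769-101237068, + strand): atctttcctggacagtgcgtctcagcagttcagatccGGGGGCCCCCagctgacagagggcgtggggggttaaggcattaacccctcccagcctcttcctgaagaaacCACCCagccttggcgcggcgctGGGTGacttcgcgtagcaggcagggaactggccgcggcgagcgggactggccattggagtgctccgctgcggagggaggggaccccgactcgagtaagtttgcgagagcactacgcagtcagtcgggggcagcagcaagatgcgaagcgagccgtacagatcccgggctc
S1PR2 (chr19:10231282-10231581, - strand): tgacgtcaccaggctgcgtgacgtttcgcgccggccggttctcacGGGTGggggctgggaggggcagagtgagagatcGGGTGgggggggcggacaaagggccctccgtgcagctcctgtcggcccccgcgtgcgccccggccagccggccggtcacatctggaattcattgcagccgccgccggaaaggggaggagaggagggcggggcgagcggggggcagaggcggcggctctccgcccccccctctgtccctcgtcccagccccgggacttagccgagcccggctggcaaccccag
S1PR3 (chr9:88990613-88990912, + strand): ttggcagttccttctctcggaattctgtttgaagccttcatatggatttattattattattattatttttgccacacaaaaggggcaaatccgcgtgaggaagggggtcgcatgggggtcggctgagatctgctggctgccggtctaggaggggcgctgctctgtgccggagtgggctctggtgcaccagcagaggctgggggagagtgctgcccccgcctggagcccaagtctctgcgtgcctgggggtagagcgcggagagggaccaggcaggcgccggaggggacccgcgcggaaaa
The annotated start used for the S1PR1 window lies 154 bases inside the deposited gene. This window held an NF-kappaB match, the same on both strands, at -213 to -204 from the start, and the KLF box at -142 to -138 and, on the opposite strand, at -120 to -116. In the S1PR2 window the KLF box stood on the opposite strand at -205 to -201 and at -172 to -168. S1PR3 has 2 windows, and neither the one shown nor the other held any of the 4 motifs. Among 35116 windows of this length in the table, 59.9% held the KLF box, 11.3% the NF-kappaB site, 7.66% the gamma-activated site and 3.57% the interferon element core. Of the 3 SPHK1 windows, 1 carried a gamma-activated site, TTCCCGGAA, at 3 to 11 bases after its start. These matches are runs of letters and were not tested for binding. SGPP1 and SPNS2 have no entry in the promoter table used here.

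The libraries held 3626000 to 4406296 counts, and 3 counts, the upper limit for a gene with no read, was 0.677 to 0.866 CPM (counts per 1000000 reads, with library sizes normalised by TMM). Of the 10067 genes with enough reads to test, 562 (5.58%) were called higher and 257 (2.55%) lower with treatment at an adjusted p under 0.05 by edgeR's quasi-likelihood test, 8.14% in all. The 819 calls became 455 without treated replicate 3 and 465 without untreated replicate 2. Untreated replicate 3 stood apart from the other untreated libraries, at -49.5 on the second principal component (27.1% of the variance) against 35.3 and 7.3. In the treated group replicate 1 was apart on this component, at 34 against -17.9 and -9.2. All 10 renal carcinoma epithelial markers listed, PAX8, KRT8 and CA9 among them, had reads in every library. Of 10 leukocyte markers, 7 were at 0 throughout, PTPRC and CD3E among them, and their sum did not pass 0.578 CPM.

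Among the 9 genes, S1PR5 had no read and the other 8 passed the filter on low counts. S1PR1 passed it only through the untreated libraries, and S1PR2 and S1PR3 only through the treated ones. Their calls are therefore no support for a difference. In the fit over all genes, 2 of the 8 were called lower (S1PR1 and SPNS2), 2 were called higher (S1PR2 and S1PR3) and 4 were not called (SPHK1, SPHK2, SGPL1 and SGPP1), where 8.14% of all tested genes were called. In 5 of the 8 genes the 2 groups did not overlap in CPM, 3 higher and 2 lower with treatment, which holds for 25.9% of all tested genes. The members were chosen with this contrast known, so nothing is read from these counts. Their median log2 fold change was 0.01, with a range from -3.66 to 2.36, and the median over all tested genes was -0.03. The plot of CPM by library shows every value.

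**Figure D1:**
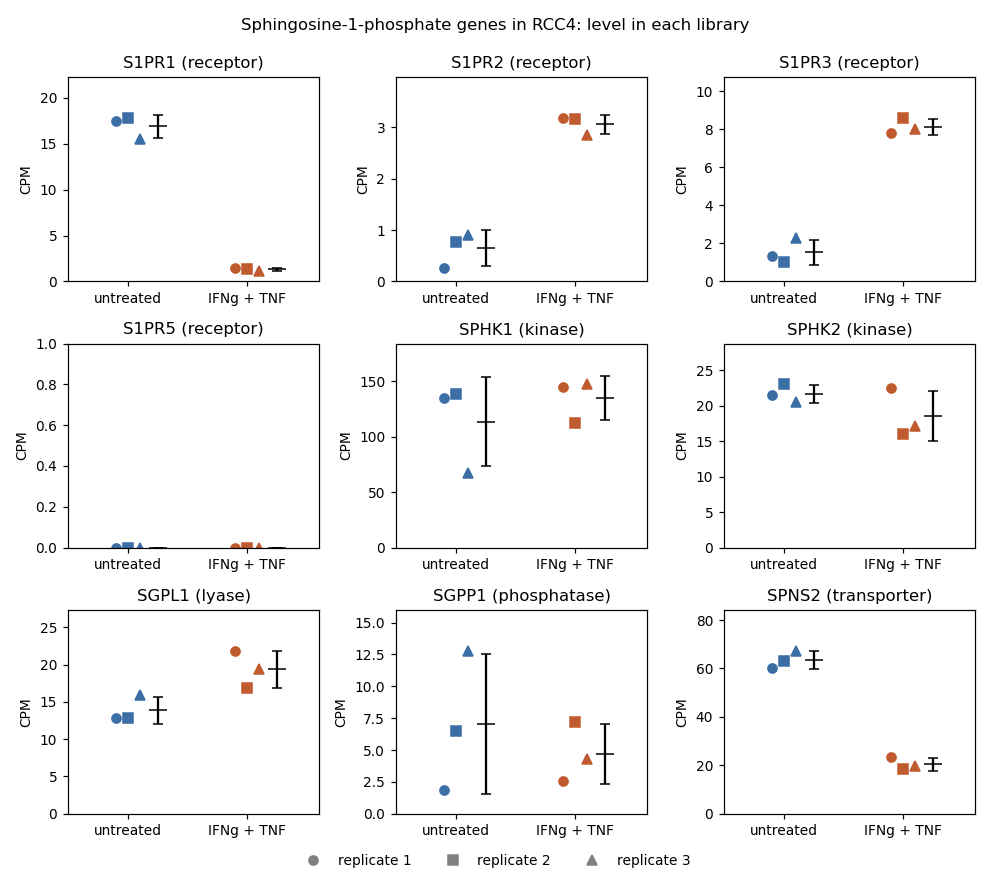
Level of each of the 9 sphingosine-1-phosphate genes in CPM (vertical axes, each from 0) in the 3 untreated and 3 IFNγ plus TNF libraries; symbols are replicates and bars are mean ± SD. S1PR1 sits between 15.5 and 17.8 CPM untreated and between 1.14 and 1.44 CPM treated, SPNS2 is lower with treatment, S1PR2 and S1PR3 are higher, and untreated replicate 3 is apart for SPHK1.

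Among the receptors, S1PR1 was lower with treatment and S1PR2 and S1PR3 were higher. S1PR1 (ENSG00000170989, chr1:101236865-101243713, + strand) is the Gi-coupled receptor that lets lymphocytes leave lymphoid tissue and keeps endothelium tight. It had 67, 69 and 68 reads in untreated replicates 1 to 3 and 5, 6 and 4 in the treated ones. In CPM these are 17.5, 17.8 and 15.5 against 1.44, 1.35 and 1.14. The treated libraries were all far below the untreated ones, although the treated counts are near the limit of detection. Within each group the libraries lay closer together than counting noise would give on average. The mean was 17.0 ± 1.28 CPM untreated and 1.31 ± 0.156 CPM treated (SD, n = 3), giving a log2 fold change of -3.66 (SE 0.32), or a level 12.6-fold lower. Summed counts, scaled for library size, gave a ratio of 12.8 with a 95% interval from 7.60 to 23.4, an exact binomial interval that covers counting error alone. By log2 fold change S1PR1 ranked 9 from the lowest of the 10067 tested genes. That rank is a description, since S1PR1 was chosen knowing of this difference. The log2 fold change ran from -3.76 to -3.56 over the 13 alternative settings, which left out each library in turn or changed the scaling, the filter or the tool. In bulk RNA, fewer cells of a type and less RNA per cell cannot be told apart.

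Because S1PR1 is a hallmark of endothelium, markers of that cell type were read beside it. Of 10 endothelial markers, 6 were at 0 in all libraries: PECAM1, CDH5, VWF, KDR, TEK and CLDN5. The summed level of the list was 35.3 to 46.2 CPM untreated and 34.5 to 51.6 CPM treated, nearly all of it EGFL7, which had 130, 166 and 195 reads against 151, 145 and 161. TIE1, ROBO4 and ESAM, the others of the list, had between 0 and 20 reads in a library. The part of such cells in the S1PR1 level was not tested.

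S1PR2 (ENSG00000267534, chr19:10221433-10231331, - strand) is the receptor that is known to restrain cell migration. It had 1, 3 and 4 reads untreated and 11, 14 and 10 treated, or 0.262, 0.776 and 0.911 CPM against 3.18, 3.16 and 2.85 CPM. Every treated library was above every untreated one, although the untreated counts are near the limit of detection. The mean went from 0.650 ± 0.342 to 3.06 ± 0.183 CPM (SD, n = 3), and the log2 fold change was 2.16 (SE 0.51). Summed counts gave a ratio of 4.64 (95% interval 2.11 to 11.6). Its call was lost in DESeq2's Wald test, and without untreated replicate 1 (log2 fold change 1.84) or 2 (2.29) and without treated replicate 1 (2.15), 2 (2.19) or 3 (2.22). Of its exonic bases, 2.3% are shared with DNMT1.

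S1PR3 (ENSG00000213694, chr9:88990863-89005155, + strand) couples to Gi, Gq, G12 and G13 and is known from vascular smooth muscle and fibroblasts. Its reads numbered 5, 4 and 10 untreated and 27, 38 and 28 treated. That is 1.31, 1.03 and 2.28 CPM against 7.80, 8.58 and 7.99 CPM, and the groups were well separated. From 1.54 ± 0.653 to 8.12 ± 0.406 CPM (SD, n = 3), the log2 fold change was 2.36 (SE 0.39), and it ran from 2.15 to 2.75 over the 13 alternatives. The ratio of summed counts was 5.19 (95% interval 3.14 to 8.999). Fibroblast and pericyte markers, read beside S1PR3, were at 0 in all libraries for 5 of 10 (COL1A2, COL3A1, DCN, LUM and PDGFRA). The list summed to 65.9 to 81.5 CPM untreated and 31.7 to 54.6 CPM treated. Most of this was COL1A1, at 55.8 CPM untreated and 36.2 CPM treated on average, with overlap between the groups. ACTA2 (6.47 and 4.84 CPM) overlapped too, and PDGFRB (10.3 and 2.72 CPM) did not. The part of such cells in the S1PR3 level was not tested.

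S1PR5 (ENSG00000180739, chr19:10512742-10517931, - strand), a receptor known from natural killer cells and oligodendrocytes, had 0 reads in all 6 libraries. At this depth a level of up to 0.677 to 0.866 CPM could have gone undetected in a library. S1PR4, the remaining receptor of the family and a gene of leukocytes, was also at 0 throughout and was kept in a pathway list.

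The balance among receptors turned over. Divided by kilobases of exon, S1PR1 stood at 3.25 ± 0.245 CPM per kb untreated, against 0.178 ± 0.094 for S1PR2 and 0.112 ± 0.0477 for S1PR3 (SD, n = 3). With treatment the levels were 0.251 ± 0.0298 CPM per kb for S1PR1, 0.841 ± 0.0501 for S1PR2 and 0.593 ± 0.0297 for S1PR3. On this scale S1PR1 was the highest of the receptors in each untreated library and the lowest of the 3 with reads in each treated one. Its share of the summed per-kb receptor level was 95.3%, 92.2% and 87.7% untreated and 16.1%, 14.8% and 13.8% treated. The S1PR2 share went from 5.06% ± 2.74 to 49.9% ± 0.76, and the S1PR3 share from 3.22% ± 1.51 to 35.2% ± 1.88. Each treated library had only 4 to 6 S1PR1, 10 to 14 S1PR2 and 27 to 38 S1PR3 reads. The SDs are the spread of 3 libraries and do not give the counting error of a share.

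Length matters for the order of the other pair. S1PR3 has 13702 exonic bases and S1PR2 has 3643, whereas a direct RNA read stands for 1 molecule whatever its length. Counted as reads without division by length, an alternative added after seeing the data, S1PR1 made up 88.5% ± 4.85 untreated and 10.5% ± 1.06 treated. S1PR3 was then the larger of the others in treated cells, at 65.0% ± 1.99 of receptor reads, and S1PR2 held 24.5% ± 0.943. Which of S1PR2 and S1PR3 led in treated cells therefore depended on the scale, while S1PR1 was the smallest on both. By reads, the scale on which 1 read stands for 1 molecule, S1PR3 led in each treated library. S1PR2 led only after division by length. The summed level of the receptors in CPM was 19.1, 19.6 and 18.7 untreated and 12.4, 13.1 and 12 treated, so the sum was lower in every treated library even with S1PR2 and S1PR3 higher.

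**Figure D2:**
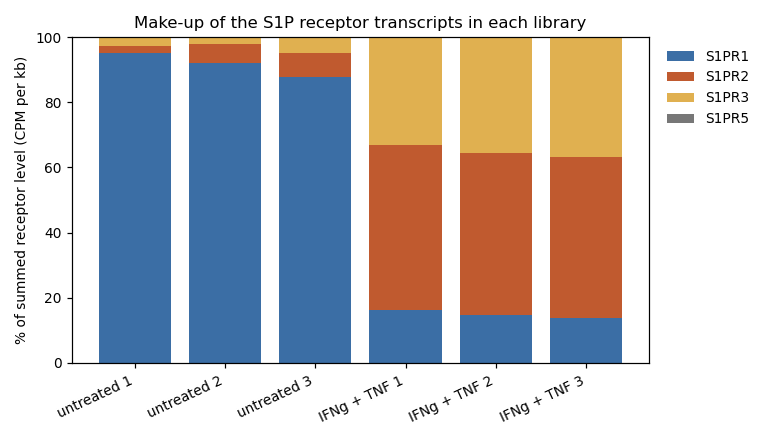
Percent of the summed S1P receptor level (CPM per kb of exon) held by each receptor in each of the 6 libraries; S1PR5 is at 0. S1PR1 holds 87.7% to 95.3% in the untreated libraries and 13.8% to 16.1% in the treated ones, where S1PR2 holds 49.9% on average. Counted as reads, without division by length, S1PR3 holds 65% and S1PR2 24.5% on average in the treated libraries.

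The kinases, which make S1P, showed no called difference. SPHK1 (ENSG00000176170, chr17:76376584-76387860, + strand), the mostly cytoplasmic kinase that can move to the plasma membrane, had 517, 534 and 297 reads untreated and 501, 495 and 515 treated. In CPM that is 135, 138 and 67.6 against 145, 112 and 147, so only untreated replicate 3 was apart. The means were 114 ± 39.9 and 134 ± 19.7 CPM (SD, n = 3), and the log2 fold change was 0.24 (SE 0.28). Without untreated replicate 3 that difference was -0.03. SPHK2 (ENSG00000063176, chr19:48619291-48630717, + strand), the kinase found also in nucleus and mitochondria, had 82, 89 and 90 reads untreated and 78, 71 and 60 treated. Its means of 21.7 ± 1.27 and 18.6 ± 3.48 CPM gave a log2 fold change of -0.23 (SE 0.23), and the groups overlapped.

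SPHK1 was the most abundant of the 9 genes per length, at 25.7 ± 9.04 CPM per kb untreated and 30.4 ± 4.46 treated. SPHK2 followed in the third place on this scale in both groups, at 3.60 ± 0.211 and 3.09 ± 0.580 CPM per kb. In CPM without division by length, SPHK2 (18.6) stood below SGPL1 (19.4) on average in treated cells, with overlap.

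The exporter was lower in treated cells. SPNS2 (ENSG00000183018, chr17:4498881-4539035, + strand), the transporter through which endothelial and other cells release S1P, had 230, 244 and 296 reads untreated and 81, 81 and 69 treated. The levels were 60.2, 63.1 and 67.4 CPM untreated and 23.4, 18.3 and 19.7 CPM treated, and the groups lay far apart. Means of 63.6 ± 3.62 and 20.5 ± 2.64 CPM (SD, n = 3) gave a log2 fold change of -1.64 (SE 0.19), or a level 3.11-fold lower, with a ratio of summed counts of 3.15 (95% interval 2.71 to 3.66). SPNS2 ranked 140 from the lowest of the 10067 tested genes, and its log2 fold change ran from -1.75 to -1.51 over the 13 alternatives. Per length it remained the second most abundant of the 9 genes, at 15.6 ± 0.89 CPM per kb untreated and 5.03 ± 0.649 treated. Without that division its treated libraries (18.3 to 23.4 CPM) overlapped with those of SGPL1 and SPHK2.

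The enzymes that remove S1P differed less. SGPL1 (ENSG00000166224, chr10:70815948-70881184, + strand), the lyase that ends the pathway irreversibly, had 49, 50 and 70 reads untreated and 76, 75 and 68 treated. It stood at 12.8, 12.9 and 15.9 CPM against 21.9, 16.9 and 19.4 CPM, with no overlap between the groups but with the nearest libraries only about 1 CPM apart. The means were 13.9 ± 1.77 and 19.4 ± 2.51 CPM, a log2 fold change of 0.48 (SE 0.23), which was not called. SGPP1 (ENSG00000126821, chr14:63684216-63728065, - strand), an endoplasmic reticulum phosphatase that returns S1P to sphingosine, had 7, 25 and 56 reads untreated and 9, 32 and 15 treated. Its CPM values of 1.83, 6.46 and 12.8 against 2.60, 7.22 and 4.28 spread more within the groups than between them. The means were 7.02 ± 5.48 and 4.70 ± 2.34 CPM. The log2 fold change was -0.57 (SE 0.63), and it was 0.19 without untreated replicate 3.

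In per-kb order the untreated cells ran SPHK1, SPNS2, SPHK2, S1PR1, SGPP1, SGPL1, S1PR2, S1PR3 and S1PR5. SPHK2 and S1PR1 lay next to each other at 3.60 ± 0.211 and 3.25 ± 0.245 CPM per kb and their libraries overlapped. SGPP1 (2.10 ± 1.64 CPM per kb) overlapped with both of its neighbours, S1PR1 and SGPL1 (1.85 ± 0.236), and S1PR2 overlapped with S1PR3. In treated cells the order was SPHK1, SPNS2, SPHK2, SGPL1, SGPP1, S1PR2, S1PR3, S1PR1 and S1PR5. There SPHK2 (3.09 ± 0.580 CPM per kb) overlapped with SGPL1 (2.59 ± 0.334), and SGPP1 (1.41 ± 0.701) with S1PR2. S1PR2, S1PR3 and S1PR1 did not overlap in any library. The move of S1PR1 from rank 4 to rank 8 was the only one of the 9 that exceeded 2 ranks. These orders depend on the division by length, although a direct RNA read stands for 1 molecule. In CPM the treated means of SGPL1 (19.4) and S1PR3 (8.12) stood above those of SPHK2 (18.6) and SGPP1 (4.70), respectively.

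The members also differed in how steady they were among replicates. The variance of the 3 untreated counts divided by their mean, which is 1 for counting noise alone, was 0.0147 for S1PR1, 38.9 for SPHK1 and 20.9 for SGPP1. S1PR1 counts thus varied less than counting noise would give on average, and SPHK1 and SGPP1 counts varied far more. For SPHK1 untreated replicate 3 was the low library, whereas for SGPP1 the 3 untreated libraries all differed, with replicate 1 the lowest and replicate 3 the highest. The part that the other differences of untreated replicate 3 have in these values was not tested.

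Around the members, 6 lists of sphingolipid and receptor-signalling genes held 79 genes, of which 66 had a read and 54 were tested. In these lists 4 genes rose and 1 fell by edgeR's adjusted p, where 8.14% of all tested genes were called, and their median log2 fold change was 0.10 against -0.03 over all genes. The 5 calls became 2 without untreated replicate 1, untreated replicate 2 or treated replicate 3, 3 without treated replicate 1 and 9 without untreated replicate 3. The plot of fold changes by list shows the members beside these genes.

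**Figure D3:**
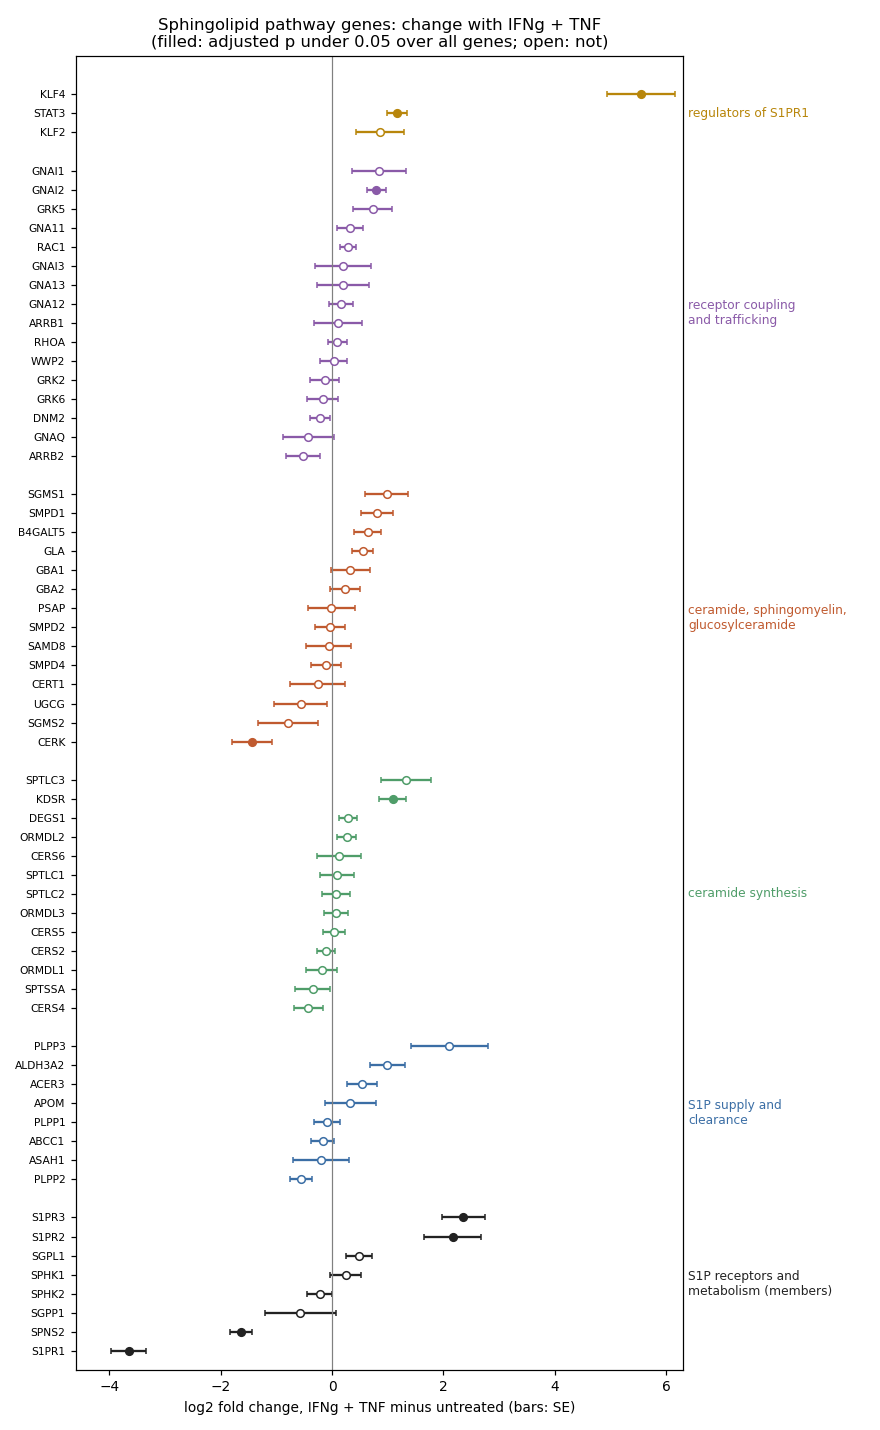
log2 fold change (IFNγ plus TNF minus untreated, horizontal axis, bars SE) of the 8 tested members and the 54 tested pathway genes, by list; filled points passed an adjusted p of 0.05 over all genes. S1PR1 at -3.66 is the lowest point and KLF4 at 5.56 the highest, and most of the open points lie between -1 and 1.

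S1P supply and clearance outside the members covered further transporters, lipid phosphatases, ceramidases and the carrier APOM. Of 16 genes, 8 were tested and none was called by edgeR, where 8.14% of all tested genes were called. DESeq2's Wald test called 1 higher and limma voom none. PLPP2, a cell-surface lipid phosphate phosphatase and the most abundant of the list, stood at 161, 168 and 136 CPM untreated and 113, 82.6 and 122 CPM treated, or -0.55 in log2 (SE 0.20; edgeR adjusted p = 0.152). PLPP2 was the 1 gene of the list lower in all treated libraries, which holds for 12% of all tested genes. When libraries were scaled by their totals alone, PLPP2 reached -0.66 and an edgeR adjusted p of 0.0483. In 3 genes, singled out after their values were seen, all treated libraries were higher, as in 13.9% of all tested genes. They were the lipid phosphatase PLPP3 (2.11 in log2, SE 0.69, edgeR adjusted p = 0.115), the aldehyde dehydrogenase ALDH3A2, which acts after the lyase (1.00, SE 0.32, edgeR adjusted p = 0.103), and the ceramidase ACER3 (0.54, SE 0.26, edgeR adjusted p = 0.306). ASAH1, the acid ceramidase that frees sphingosine in lysosomes, ran from 26.4 to 84.9 CPM untreated and from 21.1 to 64.7 CPM treated, -0.19 in log2 (SE 0.51; edgeR adjusted p = 0.905). Its sign turned without untreated replicate 3 (0.55) or treated replicate 1 (0.13). At 0 in all 6 libraries were S1PR4, SGPP2, ABCG2, ACER1 and ASAH2.

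Ceramide synthesis had 13 tested genes of 17, and 1 rose, where 8.14% of all tested genes were called. KDSR, which reduces ketosphinganine in the second step of the pathway, stood at 30.1, 27.1 and 39.6 CPM untreated and 58.3, 58.2 and 89.6 CPM treated. All treated libraries were above all untreated ones, 1.09 in log2 (SE 0.25; edgeR adjusted p = 0.0276). The call was lost with scaling by totals alone (adjusted p = 0.0657), without untreated replicate 1 (0.0669) or 2 (0.132) and without treated replicate 3 (0.113), in a range over 13 alternatives from 0.000274 to 0.132. The 2 most abundant genes of the list were not called. CERS2, a ceramide synthase for very long acyl chains, stood at 217 ± 8.49 CPM untreated and 202 ± 16.5 treated (log2 fold change -0.11, SE 0.16, 0.01 without treated replicate 2). DEGS1, the desaturase that makes ceramide, stood at 129 ± 12.7 and 157 ± 6.86 CPM (log2 fold change 0.28, SE 0.16, edgeR adjusted p = 0.413). The list's median was 0.07.

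The list of ceramide, sphingomyelin and glucosylceramide interconversion had 14 tested genes of 18, and 1 fell, where 8.14% of all tested genes were called. CERK, the kinase that makes ceramide-1-phosphate, had 129, 118 and 78 reads untreated and 44, 52 and 20 treated. That is 33.8, 30.5 and 17.8 CPM against 12.7, 11.7 and 5.70 CPM, with replicate 3 the lowest in both groups and no overlap between them. Its log2 fold change was -1.43 (SE 0.36, edgeR adjusted p = 0.042). CERK was no longer called in limma voom (adjusted p = 0.0522), without untreated replicate 1 (0.0882) or 2 (0.147), or without treated replicate 1 (0.0671), 2 (0.116) or 3 (0.14), and over the 13 alternatives the adjusted p ran from 8.5e-05 to 0.147. PSAP, the precursor of the saposins that help break down sphingolipids, was the most abundant at 651 ± 391 CPM untreated and 646 ± 309 treated, and its log2 fold change of -0.01 (SE 0.43) changed sign in 9 of 13 alternatives, to 0.60 without untreated replicate 3. SMPD4, a neutral sphingomyelinase, stood at 132 ± 40.6 and 122 ± 29.1 CPM (log2 fold change -0.11, SE 0.27), with a sign that turned without untreated replicate 1 (0.10) or treated replicate 2 (0.02).

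Receptor coupling and trafficking had 16 tested genes of 17, with G protein alpha subunits, arrestins, receptor kinases and small GTPases, and 1 rose. Over all tested genes 8.14% were called. GNAI2, a Gi alpha subunit of the kind that S1PR1 uses, had 817, 852 and 772 reads untreated and 1329, 1457 and 1220 treated. In CPM it stood at 214, 220 and 176 against 384, 329 and 348, with the groups apart and a difference of 0.80 in log2 (SE 0.17; edgeR adjusted p = 0.0201). Its adjusted p over the 13 alternatives ran from 0.00141 to 0.0775, past the threshold without untreated replicate 1 (0.0621) or 2 (0.0765) and without treated replicate 1 (0.0775) or 3 (0.0764). GNAI1, GNAI3, GNAQ, GNA11, GNA12 and GNA13, the other alpha subunits listed, were not called. RHOA, the GTPase downstream of G12 and G13, stood at 711 ± 98.8 and 758 ± 53.6 CPM (log2 fold change 0.09, SE 0.17), and its sign turned with scaling by totals alone (-0.01) and without untreated replicate 3 (-0.03). RAC1, the GTPase that S1PR1 is known to engage, stood at 415 ± 13.6 and 506 ± 21.7 CPM with no overlap (log2 fold change 0.29, SE 0.15, edgeR adjusted p = 0.341). All treated libraries were likewise higher in 13.9% of all tested genes. CD69, the leukocyte protein that pulls S1PR1 off the cell surface, had 0 reads in all libraries.

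Known transcription regulators of S1PR1 were a list of 4, of which 3 were tested and 2 rose, where 8.14% of all tested genes were called. KLF4, a Kruppel-like factor related to the S1PR1 activator KLF2, had 1, 0 and 1 reads untreated and 24, 38 and 43 treated. With so few untreated reads the size is best given by the ratio of summed counts, 55.6 with a 95% interval from 15.0 to 465, and the edgeR adjusted p was 0.000579. The fitted log2 fold change of 5.56 depends on the prior count. STAT3, known to bind the S1PR1 promoter and to be activated through the receptor, had 212, 171 and 192 reads untreated and 397, 460 and 365 treated. That is 47.8 ± 6.67 CPM untreated and 108 ± 6.17 CPM treated (SD, n = 3), or 1.17 in log2 (SE 0.18, edgeR adjusted p = 0.00417). KLF4 and STAT3 kept their calls in all 13 alternatives, with adjusted p up to 0.00398 and 0.0381. KLF2, the factor that turns on S1PR1 in T cells and endothelium, stood at 5.76, 5.17 and 2.05 CPM untreated and 8.09, 6.09 and 9.41 CPM treated (log2 fold change 0.86, SE 0.42, edgeR adjusted p = 0.312). FOXO1, upstream of KLF2 in T cells, had 2 to 4 reads in every library and was not tested.

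Receptors for lysophosphatidic acid, a related lipid, with its producing enzyme autotaxin (ENPP2), gave no gene with enough reads to test. LPAR1 had 14, 6 and 30 reads untreated and 6, 3 and 8 treated, and LPAR2 had 4, 10 and 9 against 7, 9 and 8. LPAR1 overlapped between the groups and its untreated counts spread widely, while LPAR3, LPAR4 and LPAR6 were at 0. Of the lysophospholipid receptors looked at, S1PR1 therefore had the most reads in untreated cells.

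The 5 genes with the pattern most like that of S1PR1 were sought among 8471 tested genes whose mean reached 5 CPM. The measure was the root mean square difference of log2 CPM (prior count 2), centred on each gene's mean, over the 6 libraries. They were LUARIS (0.384), CITED2 (0.441), CRISPLD2 (0.442), FGFR4 (0.460) and HES1 (0.472). LUARIS, a long noncoding RNA, had 44, 53 and 72 reads untreated and 2, 5 and 1 treated. CITED2, a transcriptional co-regulator that competes with hypoxia-inducible factor for its coactivators, was far more abundant, at 693 ± 67.7 CPM untreated and 128 ± 36.4 treated. FGFR4, a fibroblast growth factor receptor, had 121, 128 and 132 reads against 27, 20 and 16.

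CRISPLD2, a secreted protein, stood at 148 ± 50.9 and 21.8 ± 2.63 CPM. HES1, a repressor downstream of Notch, had 103, 86 and 137 reads untreated and 20, 20 and 12 treated. S1PR1 and these 5 genes were all lower in every treated library than in any untreated one. Of the 5, 4 had a smaller fold change than S1PR1, from -2.43 to -2.76 in log2, and LUARIS had a larger one at -4.26. The measure picks genes by this contrast, so their likeness is a description.

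**Figure D4:**
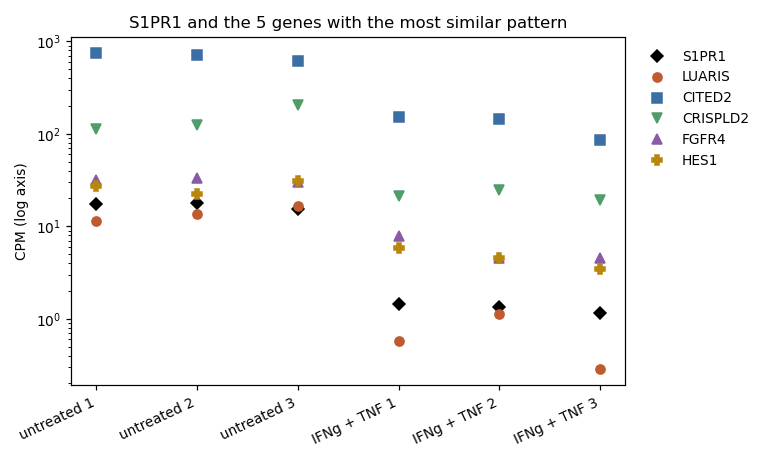
CPM (log axis) of S1PR1 and of the 5 genes with the most similar pattern in each of the 6 libraries. All 6 genes are lower in the treated libraries, with S1PR1 at 1.14 to 1.44 CPM there.

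The members lie on 6 chromosomes, with S1PR2 and S1PR5 on chromosome 19 separated by 281.4 kb. Within 250 kb of a member lay 183 other genes, of which 43 were tested. By edgeR's adjusted p 7 of these rose and 3 fell, against 8.14% called among all tested genes, and their median log2 fold change was -0.05. The 10 calls became 5 without untreated replicate 2, treated replicate 2 or treated replicate 3 and 6 without treated replicate 1. Within 100 kb, 3 rose and 2 fell of 18 tested.

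S1PR2 lay near the strongest of them. ICAM1, the leukocyte adhesion molecule and a textbook target of both cytokines, starts 39.8 kb from S1PR2 and had 81, 93 and 168 reads untreated and 4450, 4499 and 4610 treated (log2 fold change 5.43, SE 0.28, edgeR adjusted p = 6.44e-06). On the other side, SHFL, an antiviral gene induced by interferon, lay 128.2 kb away and went from 10.4 ± 2.32 to 83.3 ± 16.5 CPM (log2 fold change 2.99, SE 0.25, edgeR adjusted p = 0.000118). The other 6 tested neighbours of S1PR2 were not called. S1PR5, with no read, also has ICAM1 at 226.1 kb, together with CDKN2D, a cell cycle inhibitor, which rose (log2 fold change 1.31, edgeR adjusted p = 0.0468), and AP1M2, an epithelial sorting adaptor, which fell (-1.22, edgeR adjusted p = 0.00407). The CDKN2D call was lost with scaling by totals alone (adjusted p = 0.0532) and without untreated replicate 2 (0.115) or treated replicate 1 (0.122), 2 (0.0803) or 3 (0.174).

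SPNS2 had a related gene beside it. SPNS3, a paralog whose function is little known, ends 10.7 kb before SPNS2 on the same strand. It had 12, 20 and 15 reads untreated and 3, 4 and 1 treated, so it was lower in every treated library, as SPNS2 was. Its log2 fold change was -2.43 (SE 0.52, edgeR adjusted p = 0.0208), and the call was lost without untreated replicate 2 (0.119) or treated replicate 1 (0.0657), 2 (0.069) or 3 (0.099). Further away ANKFY1 (234.9 kb), an endosomal protein, rose by 1.15 in log2 (edgeR adjusted p = 0.0177), a call lost without untreated replicate 2 (0.09) or treated replicate 2 (0.0607) or 3 (0.0873). CXCL16 (194.5 kb), a chemokine, stood at 0.262, 0.517 and 0.683 CPM untreated and 4.62, 5.19 and 9.98 CPM treated (log2 fold change 3.65, SE 0.55, edgeR adjusted p = 0.00358). The other 5 tested neighbours of SPNS2 were not called, and SPNS3 was the 1 neighbour called lower.

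Of the 2 tested neighbours of S1PR1, DPH5, an enzyme of diphthamide synthesis, fell by 0.77 in log2 (SE 0.18, edgeR adjusted p = 0.0313) at a distance of 210.8 kb. Near SPHK1, RHBDF2, which takes part in the release of TNF by ADAM17, lay 83.0 kb away and rose from 35.8 ± 4.96 to 120 ± 37.2 CPM (log2 fold change 1.75, SE 0.26, edgeR adjusted p = 0.0031). UBALD2 (105.3 kb) rose as well (1.39, SE 0.33, edgeR adjusted p = 0.0328), whereas SPHK1 between them was not called. The DPH5 call was lost when every gene with a count was tested (adjusted p = 0.0609) and without any 1 library other than untreated replicate 3 (0.0885 to 0.147). The UBALD2 call was lost without untreated replicate 2 (0.122) or treated replicate 1 (0.107), 2 (0.0503) or 3 (0.121). S1PR3 had no tested neighbour, and the calls lay near S1PR1, S1PR2, S1PR5, SPHK1 and SPNS2.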

How the data were processed

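Per the labels' protocols, 500 ng of poly(A) RNA per library was sequenced with the SQK-RNA002 kit on a separate PromethION flow cell for 72 h, and reads with a quality above 7 were kept. Per the file headers, the authors' featureCounts 2.0.1 run (long-read, strand-specific, Ensembl 105 exons) produced the read counts deposited for each gene. The submitters' processing notes name featureCounts 2.0.0, minimap2 2.24, SAMtools 1.16 and hg38. Direct RNA reads favour 3′ ends, and a read touching exons of more than 1 gene was left uncounted by the program's default. Alignment names in the file headers hold the word dmso, which the labels do not mention. Groups came from the sample titles.

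Symbols matched 61369 of 61541 identifiers, and 159 others were named from GENCODE 29. Libraries held 3626000 to 4406296 counts, so 3 counts equal 0.677 to 0.866 CPM. Intervals and these limits take in counting error only. No pair of replicates looked like one library deposited again: chi-square over its degrees of freedom was 3.48 to 24.7 within groups. The p-values set the difference between the groups against the spread between these cultures of a single cell line. Tests used edgeR 4.0.16 (quasi-likelihood, TMM, filterByExpr, group as the sole term, Benjamini-Hochberg adjustment over 10067 genes, threshold 0.05) in R 4.3.3. Alternatives were DESeq2 1.42.0, limma 3.58.1 (voom), other scalings and filters, a replicate term and leaving out each library. On simulated counts edgeR's test recovered 163 of 200 changed genes, with 7 false calls, but only 16 of 50 genes changed 2-fold. A gene that was not called may therefore still differ. The simulation held no replicate that stood apart, unlike untreated replicate 3. Standard errors were taken from the log2 fold change and F.

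The members and gene lists were chosen with earlier results of these data known. Named genes were all members, called and non-overlapping genes of each list (up to 6) with its 2 most abundant tested genes, the 5 patterns most like S1PR1 and every called neighbour within 250 kb.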

Additional observations from a re-analysis of the deposited data

How the results depend on the processing

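Across 13 alternatives, the log2 fold changes of the 8 tested members kept their direction in 102 of 104 values. The 2 exceptions, both without untreated replicate 3, were SPHK1 at -0.03 and SGPP1 at 0.19; with single libraries left out these genes ranged from -0.03 to 0.41 and from -0.988 to 0.194. Calls among members ranged from 3 to 4 when single libraries were left out. Over all genes, calls went from 819 to 1328 when every gene with a count was tested, and from 455 to 1178 when single libraries were left out. Pathway calls went from 5 to 8 with every gene with a count, and ranged from 2 to 9 when single libraries were left out. Neighbour calls ranged from 5 to 11 when single libraries were left out and were 5 within 100 kb, where fewer genes were tested. Scaling by totals alone moved the median of log2 fold changes over all genes from -0.03 to -0.13 and changed the calls to 485 higher and 364 lower. Counted as reads rather than per length, S1PR1 held 10.5% of receptors in treated cells.

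The replicate numbers were not shown to pair the cultures, since same-numbered libraries of the 2 groups correlated at 0.651, -0.004 and 0.374 in their deviations, and not every library correlated best with its own number. With the replicate number as a block, edgeR called 1513 genes, 10 pathway genes, 10 neighbours and 4 members, and PSAP was at 0.046.

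The other named genes that reversed had small log2 fold changes in the main fit. ASAH1 and PSAP still moved widely when single libraries were left out. With single libraries left out, log2 fold changes ranged from -0.145 to 0.011 for CERS2, -0.661 to 0.55 for ASAH1, -0.353 to 0.097 for SMPD4, -0.025 to 0.181 for RHOA and -0.467 to 0.604 for PSAP. RHOA was at -0.008 with totals alone. PSAP was at 0.015 with DESeq2 size factors, 0.033 with every gene with a count, 0.031 with at least 10 counts in 3 libraries, 0.016 with DESeq2's test and 0.038 with limma voom. The cause was not tested. Depth limits S1PR2, with 1 to 4 untreated reads, more than the other tested members.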

Other observations

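The exporter SPNS2 had close followers of its pattern too, a search chosen after its values were seen. By the same measure as for S1PR1, over the 6 libraries and among 8471 genes, the nearest were GAL3ST1 (0.0649), SLC6A8 (0.102), PDGFRB (0.142), CARD10 (0.158) and MNX1-AS1 (0.179). GAL3ST1 is the sulfotransferase that makes sulfatide, a sphingolipid of kidney epithelium, and PDGFRB is a growth factor receptor best known from pericytes. PDGFRB had 36, 40 and 49 reads untreated and 9, 12 and 10 treated (-1.91 in log2, SE 0.31). These values describe likeness in this contrast alone.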
